A study of Mus musculus with 9 samples.

Results

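Naive CD4+ T cells of mice treated with anti-IL-1b, a neutralizing antibody, were compared across all genes with the same cells of mice treated with MCC950. The comparison rests on 6 of the 9 libraries of the series, 3 per agent. Of the 55487 gene IDs listed for every library, 12916 had enough counts in these 6 to be tested. All libraries hold poly(A) RNA of splenic naive CD4+ T cells (TN cells) of wild-type (WT) mice of the strain C57BL6/J. Each agent was given for 10 days, and no dose, vehicle, age, sex, sort or gate is stated in the sources used here. The other 3 libraries come from mice with no treatment and serve only as a reference level. Whether the libraries of 1 group stem from different mice or from pools is not stated either, so p-values measure spread among libraries that may be technical only.

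IL-1b is an inflammatory cytokine that is made as an inactive precursor, mostly by myeloid cells, and is matured by the protease caspase-1. NLRP3 is the sensor of one inflammasome, the complex that activates caspase-1, and MCC950 is a small molecule that binds NLRP3 and blocks its assembly. The antibody removes the cytokine whichever inflammasome matured it, whereas MCC950 acts upstream, on a complex that also matures IL-18. Naive CD4+ T cells are resting helper T cells held in quiescence by transcription factors such as TCF-1, FOXP1 and KLF2, and they induce AP-1 and other early response genes within minutes of a stimulus.

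Total expected counts ran from 14775375 to 16676626 per anti-IL-1b library and from 16769960 to 18497827 per MCC950 library. Levels are given as CPM, counts relative to each library's total after TMM scaling, a correction for differences in composition between libraries. Cd4, whose product binds MHC class II beside the T cell receptor, stood at 911, 898 and 895 CPM with the antibody and at 828, 826 and 821 CPM with MCC950. Of 12 T cell identity genes, all were tested and summed to between 7591 and 7641 CPM with the antibody and between 7252 and 7269 CPM with MCC950. The labelled cell type is thus carried by its defining markers in both groups, though these sums did not overlap. Of the 12 genes, 4 were called higher with the antibody and 2 with MCC950 (50%, beside 14.1% of all genes). Untreated libraries summed to between 7746 and 7823 CPM. B cell markers (20 of 21 tested) had sums of 509 to 531 CPM in antibody libraries, of 505 to 530 CPM in MCC950 libraries and of 327 to 347 CPM in untreated libraries. Markers of cytotoxic and NK cells summed to between 98.7 and 108 CPM and to between 103 and 108 CPM, beside 68.6 to 75.4 CPM in untreated libraries. Neutrophil marker sums did not overlap, and all 19 had sums of 45.6 to 48.8 CPM in antibody libraries, of 23.2 to 28.6 CPM in MCC950 libraries and of 3.96 to 4.64 CPM in untreated libraries. Markers of monocytes, macrophages and dendritic cells (20 listed) did not overlap either but went the other way, with sums of 194 to 201 CPM in antibody libraries, of 217 to 230 CPM in MCC950 libraries and of 179 to 188 CPM in untreated libraries. The largest part of these sums was Ctss, with means of 119, 132 and 121 CPM in the same order. Bst2, named again below among type I interferon response genes, had means of 25.8, 36.0 and 27.1 CPM. The sums therefore rest largely on single genes. Sums of the regulatory T cell list (67.3 to 75.8 against 77 to 81.3 CPM), of the activated and memory CD4 list (256 to 268 against 273 to 285 CPM) and of the thymocyte list (263 to 284 against 240 to 246 CPM) did not overlap between antibody and MCC950 libraries. Their part in the results was not tested. In such bulk libraries, fewer cells of a type and less RNA per cell cannot be told apart.

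The agents left similar transcriptomes with many small differences and few large ones. At an adjusted p of at most 0.05 (edgeR, quasi-likelihood, Benjamini-Hochberg, as for every adjusted p here), 1821 of 12916 genes (14.1%) were called, 773 (5.98%) higher with the antibody and 1048 (8.11%) higher with MCC950. The median called gene differed by 0.23 on the log2 scale, or 1.18-fold. The groups did not overlap in 1743 of the 1821 called genes, so a lack of overlap does not set a called gene apart. A difference of at least 2-fold was called for 84 genes (0.65%), 60 higher with the antibody and 24 higher with MCC950, and 68 of these 84 had a mean log2 CPM under 2. Scaling to the upper quartile turned the split of 773 and 1048 into 1277 and 612, so the balance between the directions depends on the scaling. Against untreated levels, the untreated mean lay above both agents for 609 called genes, below both for 477 and between them for 735. A fit on log2(TPM + 1), in which each library's own effective lengths enter, called 367 genes, 325 of them among the 1821.

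**Figure D1:**
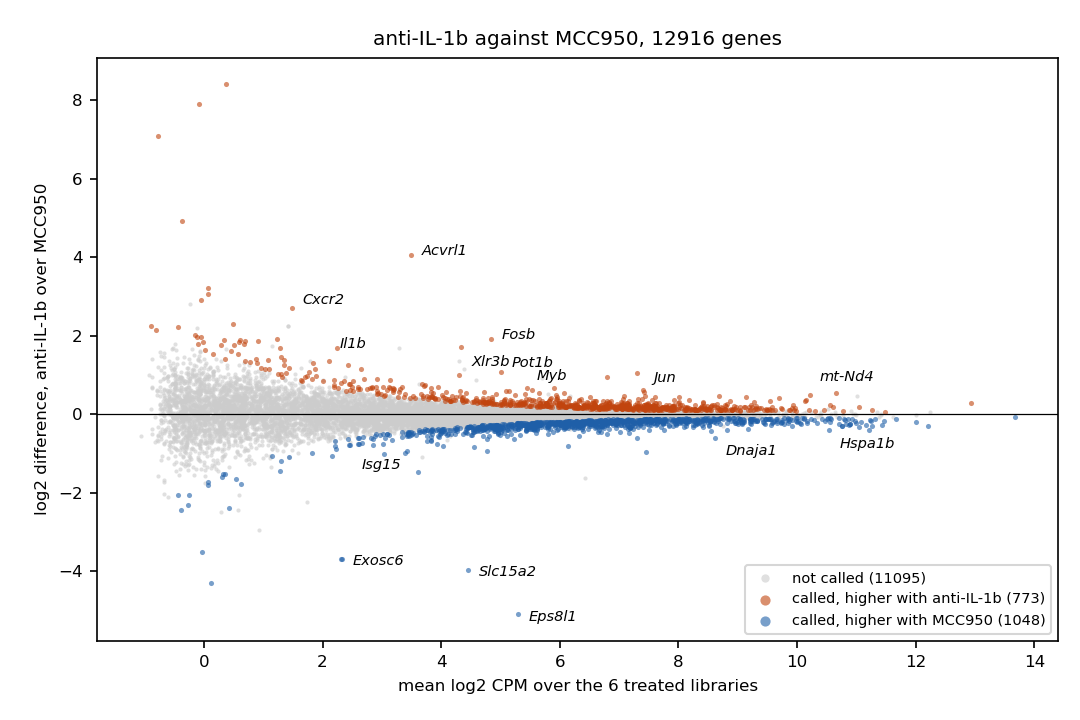
Mean log2 CPM over the 6 treated libraries (x axis) against the log2 difference of anti-IL-1b over MCC950 (y axis) for 12916 genes, each point being 1 gene. Called genes lie close to 0 at high levels, and Acvrl1, Fosb, Eps8l1 and Slc15a2 stand apart at moderate levels.

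Transcript length and base composition moved with the comparison. Among the 1292 genes with the shortest effective length, 27 were higher with the antibody and 169 with MCC950, while among the longest 236 were higher with the antibody and 38 with MCC950. Across genes, the log2 difference had a Spearman correlation of 0.20 with effective length and of -0.23 with GC content. Genes share the same 6 libraries and are not independent, so no p is given. The median difference between length and effective length, which reflects fragment length, also did not overlap between the groups, at 222.6, 214.4 and 214.6 bases in the antibody libraries and 224.9, 232.3 and 230.8 bases in the MCC950 libraries. A further fit removed the trend of each library over length and GC content, an alternative chosen after seeing the data. It called 771 genes higher with the antibody and 743 higher with MCC950, and 1142 of the 1821 genes kept their call and direction. Of the 84 genes with at least 2-fold differences, 76 were also called. Counts for most gene lists are given below with and without that trend, and its cause was not tested.

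**Figure D2:**
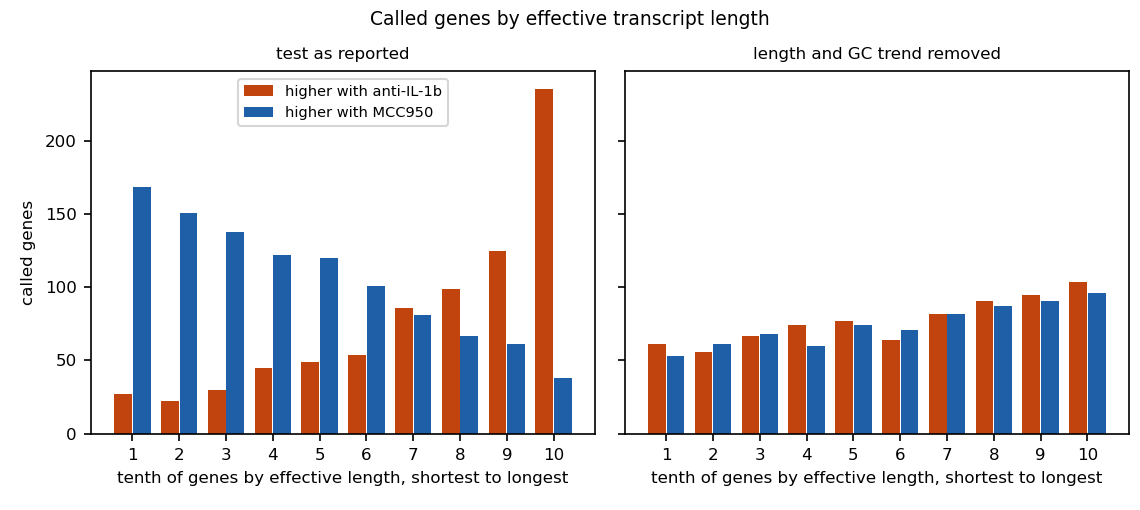
Number of called genes (y axis) in 10 bins of the tested genes by effective transcript length (x axis), in the test as reported (left) and with the trend over length and GC content removed (right). On the left 236 genes of the longest bin were higher with anti-IL-1b and 38 with MCC950, and on the right these numbers were 104 and 96.

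Fosb, Jun, Fos and Junb, genes of AP-1 subunits, were higher in the antibody group. AP-1 is a dimeric transcription factor of FOS and JUN proteins whose genes are switched on within minutes of a stimulus. Fosb (chromosome 7, 19302696 to 19310051), which encodes a FOS subunit, stood at 46.3, 45.8 and 45.6 CPM with the antibody and at 13.01, 10.44 and 12.72 CPM with MCC950. The antibody libraries were all above the MCC950 libraries, 3.81-fold on average, a log2 difference of 1.93 ± 0.10 (SE, adjusted p = 2.31e-17). Jun (chromosome 4, 95049034 to 95052222), the main partner of FOS, stood at 208, 213 and 196 CPM with the antibody and at 138, 132 and 130 CPM with MCC950 (0.62 ± 0.04, adjusted p = 7.33e-14). Fos stood at 204, 202 and 207 CPM with the antibody and at 139, 140 and 136 CPM with MCC950 (0.56 ± 0.04, adjusted p = 1.64e-13). None of these 3 genes overlapped between the groups. Junb was higher by 0.32, at 286 ± 23.6 against 229 ± 14.6 CPM (SD, n = 3). Atf3, a stress-induced partner of JUN, had 85 counts over the antibody libraries and 10 over the MCC950 libraries.

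Of 12 tested members of the AP-1 and small MAF list, 6 were higher with the antibody and 1 with MCC950 (58.3% called, beside 14.1% of all genes). The median log2 difference was 0.20 beside -0.01 for all genes. Removal of the length and GC trend left 6 and 0. The sixth gene higher with the antibody was Maf (0.53 ± 0.17), whose call was lost without any 1 of antibody replicates 1 and 2 and MCC950 replicates 1 and 2 (adjusted p = 0.0325 with all libraries). Mafk, a small MAF partner gene, was the one higher with MCC950 (-0.24 ± 0.07), a call lost without antibody replicate 3 or MCC950 replicate 1. Jund differed little, at 303 ± 26.4 and 301 ± 1.98 CPM, and Batf stood at 21.5 ± 3.22 and 24.0 ± 0.89 CPM with no call. Untreated levels of the 3 leading genes lay far above both agents. In untreated libraries Fosb stood at 686, 668 and 700 CPM, Jun at 1608, 1625 and 1610 CPM and Fos at 1120, 1108 and 1116 CPM, and the untreated mean of all 7 called genes was above both agents. Atf3 was nearer to untreated cells in the antibody group, with means of 4.21 CPM in untreated, 1.795 CPM in antibody and 0.191 CPM in MCC950 libraries. Fits on TPM and with an effective length offset lost the call of Atf3. The neutrophil marker sum was higher in the same libraries, at 45.6 to 48.8 against 23.2 to 28.6 CPM, and its part in these differences was not tested.

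Other early response genes split between the agents. Nr4a1 (chromosome 15, 101254269 to 101274795), an orphan nuclear receptor gene that tracks T cell receptor signalling, stood at 74.2, 69.5 and 72.2 CPM with the antibody and at 53.5, 52.7 and 46.9 CPM with MCC950, a log2 difference of 0.50 ± 0.07 (adjusted p = 6.41e-07). Ier5, an immediate early gene linked to heat shock factor 1, went the other way, at 124, 121 and 114 CPM with the antibody and 170, 160 and 169 CPM with MCC950 (-0.48 ± 0.04, adjusted p = 2.08e-10). Neither gene overlapped between the groups. Of 13 tested members of this list, 1 was higher with the antibody and 5 with MCC950 (46.2% called, beside 14.1% of all genes). With the length and GC trend removed, 1 and 4 were called. Besides Ier5, those higher with MCC950 were Ier2 (-0.26), Srf (-0.29), which encodes serum response factor, Nab2 (-0.29), a corepressor gene of EGR proteins, and Csrnp1 (-0.20). The Csrnp1 call was lost on leaving out any 1 library other than antibody replicate 1. Egr1 stood at 65.6 ± 6.46 and 60.8 ± 4.81 CPM, and Egr3 at 32.5 ± 1.47 and 31.8 ± 1.60 CPM, both without a call.

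Feedback phosphatases of MAP kinases split in the same way. Dusp1 (chromosome 17, 26505590 to 26562128) was higher with the antibody, at 54.9, 58.0 and 55.5 CPM against 36.3, 36.9 and 35.5 CPM with MCC950 (0.63 ± 0.07, adjusted p = 1.99e-08). Dusp2, Dusp5 and Dusp7 were higher with MCC950, by log2 differences of -0.32, -0.42 and -0.27. In Dusp2 the antibody libraries stood at 96.2, 87.0 and 89.7 CPM and the MCC950 libraries at 116, 113 and 113 CPM. The 4 genes were the only calls among 11 tested members (36.4%, beside 14.1% of all genes). Removal of the length and GC trend gave 1 and 3 again. Kruppel-like factor genes were higher with the antibody in 5 of 9 cases and in none with MCC950 (55.6% called, beside 14.1% of all genes). The counts were the same after removal of the trend. Klf6 stood at 192, 200 and 210 CPM against 149, 143 and 146 CPM (0.46 ± 0.04, adjusted p = 1.27e-10). Klf3 stood at 387, 380 and 362 CPM against 310, 304 and 309 CPM (0.29 ± 0.03). Klf4 had 3.84, 3.28 and 3.66 CPM against 1.28, 1.06 and 1.76 CPM (1.39 ± 0.33, adjusted p = 0.00295). Klf7 differed by 0.22 and Klf2, which keeps T cells quiescent and recirculating, by 0.12. The Klf2 call was lost without antibody replicate 2 or MCC950 replicate 2, and Klf13 stood at 523 and 508 CPM with no call. The Klf4 and Klf7 calls were lost on TPM and with an effective length offset, and the Klf2 call with the offset. Those fits called 3 and 2 of the list higher with the antibody.

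Among 19 genes of the NF-kB list, 3 were higher with the antibody and none with MCC950, with and without the length and GC trend, and the 15.8% called lay near the 14.1% of all genes. Tnfaip3 (chromosome 10, 19000910 to 19015657), the gene of the feedback inhibitor A20, stood at 89.8, 94.5 and 96.8 CPM with the antibody and at 72.5, 69.5 and 70.8 CPM with MCC950 (0.40 ± 0.06, adjusted p = 1.40e-06). Bcl3 (0.31) and Birc3 (0.14) lost their calls on leaving out any 1 of at least 5 of the 6 libraries, and 1 or 2 genes of the list were called without 1 library. Nfkbia, the gene of the inhibitor IkB alpha, stood at 108 ± 5.45 and 112 ± 5.04 CPM without a call. The median of the list was -0.05, beside -0.01 for all genes.

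**Figure D3:**
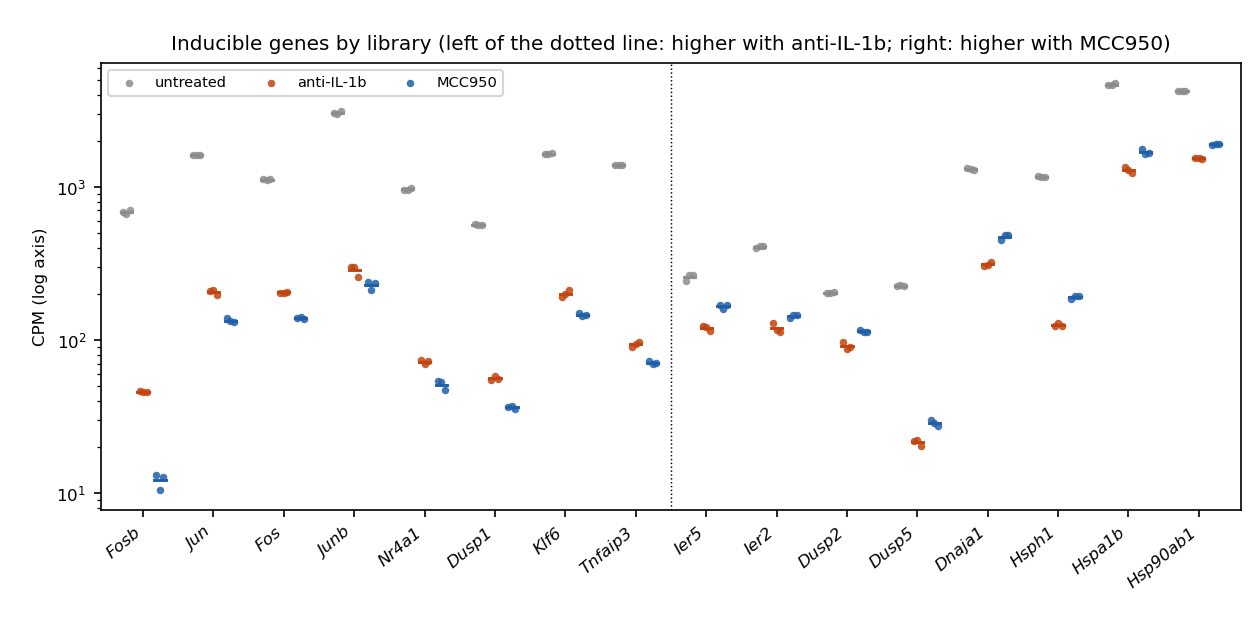
CPM on a log axis of early response, phosphatase, Kruppel-like factor and chaperone genes in each library, with untreated cells in grey, anti-IL-1b in orange and MCC950 in blue. Points are libraries and bars are means of 3. Fosb, Jun, Fos, Nr4a1 and Dusp1 lay higher with anti-IL-1b, Ier5, Dnaja1, Hsph1 and Hspa1b higher with MCC950, and untreated libraries lay above both for every gene shown.

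All called chaperone genes, 17 of 26 tested, were higher with MCC950. Heat shock proteins fold and refold other proteins, and their genes are switched on by heat shock factor 1, which binds arrays of the unit GAA in alternating orientation. Hsph1 (chromosome 5, 149614287 to 149636376), which encodes a nucleotide exchange factor of HSP70, stood at 123, 130 and 124 CPM with the antibody and at 186, 192 and 192 CPM with MCC950. Dnaja1 (chromosome 4, 40722150 to 40737149), a J-domain co-chaperone gene, stood at 303, 308 and 322 CPM against 448, 484 and 484 CPM. Both were 1.51-fold to 1.52-fold higher with MCC950, with log2 differences of -0.60 ± 0.04 (adjusted p = 9.24e-14 for Hsph1 and 1.48e-15 for Dnaja1). Hspa1b (chromosome 17, 34956436 to 34959238), an inducible HSP70 gene, stood at 1346, 1279 and 1238 CPM against 1757, 1638 and 1669 CPM (-0.39 ± 0.03, adjusted p = 1.53e-11). In each of these genes the MCC950 libraries were all above the antibody libraries.

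The promoters of these 3 chaperone genes are shown because they share the motif searched and moved together, and that of Dusp1 because it went the other way. Each window runs from 250 bases before to 50 bases after a RefSeq start site in GRCm38.p6, 5′ to 3′ on the gene's strand. Capitals mark matches to GAANNTTC or TTCNNGAA, short forms of a heat shock element, or in Dusp1 to the cAMP response element TGACGTCA. The windows are chr5:149636266-149636565 on the minus strand for Hsph1, chr17:34959189-34959488 on the minus strand for Hspa1b, chr4:40722218-40722517 on the plus strand for Dnaja1 and chr17:26508423-26508722 on the minus strand for Dusp1.
Hsph1: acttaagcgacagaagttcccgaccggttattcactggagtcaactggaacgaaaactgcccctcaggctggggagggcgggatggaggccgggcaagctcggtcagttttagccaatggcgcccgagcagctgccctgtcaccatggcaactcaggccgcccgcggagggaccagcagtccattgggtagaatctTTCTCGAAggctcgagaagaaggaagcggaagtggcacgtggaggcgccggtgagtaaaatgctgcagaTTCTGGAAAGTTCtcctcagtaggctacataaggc
Hspa1b: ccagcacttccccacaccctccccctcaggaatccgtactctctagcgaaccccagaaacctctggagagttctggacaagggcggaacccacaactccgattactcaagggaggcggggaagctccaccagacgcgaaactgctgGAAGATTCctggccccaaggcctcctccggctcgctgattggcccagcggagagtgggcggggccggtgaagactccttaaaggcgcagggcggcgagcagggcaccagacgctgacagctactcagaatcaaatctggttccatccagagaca
Dnaja1: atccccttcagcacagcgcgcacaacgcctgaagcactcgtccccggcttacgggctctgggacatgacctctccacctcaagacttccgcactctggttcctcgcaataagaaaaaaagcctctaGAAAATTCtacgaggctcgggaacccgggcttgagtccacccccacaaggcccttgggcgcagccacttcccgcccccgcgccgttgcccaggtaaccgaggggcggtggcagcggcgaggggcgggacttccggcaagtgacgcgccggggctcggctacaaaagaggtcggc
Dusp1: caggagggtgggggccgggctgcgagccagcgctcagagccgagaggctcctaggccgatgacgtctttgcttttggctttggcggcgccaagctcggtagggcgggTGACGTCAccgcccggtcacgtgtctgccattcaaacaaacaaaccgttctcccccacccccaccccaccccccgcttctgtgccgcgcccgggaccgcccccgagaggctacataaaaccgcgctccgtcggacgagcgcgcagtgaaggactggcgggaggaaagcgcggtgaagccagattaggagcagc
The Hsph1 window held 3 matches, of which 2 overlap, and the Hspa1b and Dnaja1 windows held 1 each. Dnaja1 has 2 further windows, which start at 40722672 and 40722680 and held none, and a second Hsph1 window held 3. On both strands, 4946 of 32851 windows of all genes (15.1%) held at least 1 heat shock element by this rule. Of the 17 called chaperone genes 14 had a window and 8 of these had a match, namely Chordc1, Dnaja1, Fkbp4, Hspa1a, Hspa1b, Hspd1, Hspe1 and Hsph1. By the same count, 4587 of 27025 genes with a window (17%) had a match in at least 1 of their windows. Chaperone genes without a call were not counted apart, so these shares do not compare called with uncalled chaperone genes. Of the 6 AP-1 list genes higher with the antibody, 5 had a window and 1, Jun, had a match. TGACGTCA occurred in 588 windows (1.79%), and among the early response genes called higher with the antibody it occurred in that of Dusp1. A match describes the letters of the window and is not a measured site.

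Of 26 tested genes of the heat shock and chaperone list, 17 were higher with MCC950 and none with the antibody, with a median log2 difference of -0.21. The 17 calls were 65.4% of the list, beside 14.1% of all genes. With the length and GC trend removed, 15 were higher with MCC950 and none with the antibody, at a median of -0.17. The HSP90 genes Hsp90ab1 (1540 ± 10.1 against 1901 ± 21.4 CPM) and Hsp90aa1 (331 ± 3.44 against 399 ± 14.5 CPM) differed by -0.30 and -0.27, though in the TPM fit Hsp90aa1 stood at 0.02. Hspa8, the constitutive HSP70 gene, differed by -0.29. Co-chaperones of HSP90 followed, with Stip1 at -0.34, Ahsa1 at -0.33, Fkbp4 at -0.23 and Chordc1 at -0.19. Hspd1 and Hspe1, neighbours that encode the mitochondrial chaperonin, differed by -0.24 and -0.26. Hspa1a, a near-identical copy of Hspa1b with which it may share reads, differed by -0.13, and Hspa5, the chaperone gene of the endoplasmic reticulum, by -0.12. Hspa4, at 190 and 201 CPM, was not called. The calls of Hspe1, Hspa1a, Hspa5 and Ahsa2 were each lost on leaving out any 1 of at least 2 libraries. The TPM fit called 5 of the list, and upper-quartile scaling gave 14 higher with MCC950 and 2 with the antibody. A block for replicate number gave 16 and 1. The Hspa1a call was also lost with that block and with the length and GC trend removed. For all 17 genes the untreated mean was above both agents, with Hsph1 at 1177, 1157 and 1162 CPM and Dnaja1 at 1321, 1316 and 1285 CPM in untreated libraries.

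The called respiratory chain genes of the mitochondrial genome, 8 of 13, were higher with the antibody, and the called nuclear genes of the same complexes were higher with MCC950. The mitochondrial genome encodes 13 subunits of complexes I, III, IV and V. mt-Nd4, a complex I subunit gene, stood at 1895, 1862 and 1993 CPM with the antibody and at 1268, 1338 and 1344 CPM with MCC950 (0.54 ± 0.03, adjusted p = 4.99e-17). mt-Nd5 stood at 1372, 1388 and 1430 CPM against 973, 1005 and 1000 CPM (0.49 ± 0.03, adjusted p = 1.65e-16). mt-Nd2 differed by 0.43, mt-Nd1 by 0.35, mt-Co1 by 0.29, mt-Nd6 by 0.29, mt-Co2 by 0.11 and mt-Atp8 by 0.30. None was higher with MCC950, and 61.5% of the list was called, beside 14.1% of all genes. The counts were 9 and 0 with the length and GC trend removed. The mt-Atp8 call was lost without antibody replicate 2, MCC950 replicate 1 or MCC950 replicate 3. mt-Co3 varied within both groups, at 222, 214 and 723 CPM with the antibody and at 468, 201 and 747 CPM with MCC950, as did mt-Atp6, at 327, 533 and 727 CPM and at 819, 438 and 455 CPM, and neither was called. The 13 genes summed to between 19323 and 21155 CPM with the antibody, between 16491 and 16932 CPM with MCC950 and between 21054 and 21942 CPM in untreated libraries.

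Of 76 tested nuclear genes of oxidative phosphorylation, 24 were higher with MCC950 and none with the antibody (31.6% called, beside 14.1% of all genes). With the length and GC trend removed, these counts were 8 and 3. Uqcrh, a complex III subunit gene, stood at 93.5, 90.2 and 94.9 CPM with the antibody and at 116, 113 and 114 CPM with MCC950 (-0.30 ± 0.05, adjusted p = 2.30e-05). Cox4i1, a complex IV subunit gene, stood at 207 ± 11.9 and 252 ± 5.44 CPM (-0.28). Cytosolic ribosomal protein genes showed the largest change on removal of the trend. As counted, 52 of 81 were higher with MCC950 and 1 with the antibody (65.4% called, beside 14.1% of all genes), at a median of -0.12. The 1 call higher with the antibody was lost without MCC950 replicate 3. With the trend removed, 19 were higher with MCC950 and 18 with the antibody, at a median of 0.01. Rps3, a protein of the small subunit, stood at 2123, 2023 and 1996 CPM against 2703, 2693 and 2709 CPM and differed by -0.40 as counted and -0.34 with the trend removed. Rps14 differed by -0.32 as counted and -0.17 with the trend removed, and processed pseudogenes may share its reads.

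Proteasome subunit genes were higher with MCC950 in 18 of 37 cases and in none with the antibody (48.6% called, beside 14.1% of all genes). With the length and GC trend removed, the counts were 10 and 0. The proteasome degrades ubiquitin-tagged proteins and yields peptides for MHC class I. Psmb5, a catalytic subunit gene, stood at 42.5, 39.8 and 40.7 CPM with the antibody and at 50.04, 55.57 and 55.08 CPM with MCC950 (-0.38 ± 0.07, adjusted p = 1.51e-04). Psmb4 stood at 94.2 ± 8.46 and 119 ± 0.568 CPM (-0.34), a call lost in fits on TPM and with an effective length offset. Ribosome biogenesis genes were higher with MCC950 in 7 of 35 cases (20%, beside 14.1% of all genes) and none with the antibody. The same counts came with the trend removed. The effective length offset gave 3 higher with MCC950, the TPM fit 0, upper-quartile scaling 4 and omission of 1 library 4 to 7. Upper-quartile scaling also gave 1 higher with the antibody. Fbl, the methyltransferase gene fibrillarin, differed by -0.28 and Rrs1 by -0.41. For the proteasome list the untreated mean was below both agents in 10 of the 18 called genes and above both in 1.

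Among 20 transcription factor genes of naive T cells, 10 were higher with the antibody, 2 were higher with MCC950 and 8 were not called. The share called was 60%, beside 14.1% of all genes. Myb (chromosome 10, 21124935 to 21160984) stood at 54.5, 51.4 and 54.4 CPM with the antibody and at 36.3, 32.4 and 31.8 CPM with MCC950 (0.67 ± 0.07, adjusted p = 1.66e-08), with 38.5, 38.4 and 37.4 CPM in untreated libraries. Tcf7, the gene of TCF-1, stood at 1650, 1648 and 1573 CPM against 1396, 1379 and 1368 CPM (0.23 ± 0.03, adjusted p = 1.99e-08). Satb1, a chromatin organizer gene, stood at 1061, 1049 and 1057 CPM against 896, 881 and 924 CPM (0.23 ± 0.03, adjusted p = 1.02e-07). Foxp1, a quiescence factor gene, differed by 0.25, Bach2 by 0.18 and Tox by 0.34. The median of the list was 0.10, and 9 and 1 were called with the length and GC trend removed. Those higher with MCC950 were Zbtb7b, the gene of the CD4 lineage factor ThPOK, at 245, 261 and 245 against 316, 289 and 312 CPM (-0.29 ± 0.04, adjusted p = 8.16e-07), and Runx3, a factor of the CD8 lineage, at -0.18. The Runx3 call was lost without any 1 of 4 libraries and with the trend removed. Bcl11b, at 538 and 531 CPM, and Lef1, at 507 and 495 CPM, were not called. The TPM fit called 4 of the list higher with the antibody and the effective length offset 3.

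Genes of the T cell receptor machinery split. Of 27 tested members, 3 were higher with the antibody and 7 with MCC950 (37% called, beside 14.1% of all genes). With the length and GC trend removed, 5 and 5 were called. Cd3d, a receptor subunit gene, stood at 282, 283 and 279 CPM with the antibody and at 353, 336 and 338 CPM with MCC950 (-0.28 ± 0.03, adjusted p = 1.50e-07). The scaffold gene Lat and the receptor gene Cd6 differed by -0.23 and -0.24. Rasgrp1, which activates RAS downstream of the receptor, stood at 516, 517 and 535 CPM against 448, 445 and 465 CPM (0.21 ± 0.03), Cd4 differed by 0.13 and Cd247 by 0.12. The Cd247 call was lost without MCC950 replicate 1. Ptprc, at 2658 and 2550 CPM, and Lck, at 884 and 909 CPM, were not called. Upper-quartile scaling turned the counts into 8 and 4. Of 94 tested T cell receptor V segments, 1 (1.06%), Trbv13-2, was called, and that call was lost in 5 of 6 fits without 1 library.

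Homing and cytokine receptor genes gave calls in both directions, 28.6% and 26.1% of the lists beside 14.1% of all genes. Itga4, the integrin alpha 4 gene, stood at 635, 649 and 668 CPM with the antibody and at 464, 478 and 490 CPM with MCC950 (0.45 ± 0.03, adjusted p = 1.86e-13). Itga6, another integrin alpha chain gene, differed by 0.24. S1pr4, Itgb7 and Itgb2 were higher with MCC950, by -0.24, -0.09 and -0.09, and the latter 2 lost their calls without any library other than antibody replicate 1. That gave 3 and 3 of 21 tested, and 6 and 1 with the length and GC trend removed. Itgal, at 620 and 619 CPM, and S1pr1, at 573 and 541 CPM, were not called, nor was Ccr7, at 468, 462 and 452 against 442, 443 and 450 CPM. Il7r, which encodes the alpha chain through which IL-7 keeps T cells alive, had 632, 628 and 683 CPM against 540, 572 and 574 CPM (0.20 ± 0.03, adjusted p = 2.84e-05) and was the only 1 of 23 cytokine receptor genes higher with the antibody, while 5 were higher with MCC950, and 2 and 4 with the trend removed. Without 1 library, 3 to 5 genes were called higher with MCC950. Il21r and Il4ra, receptor genes of IL-21 and IL-4, differed by -0.21 and -0.17 among those 5.

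Type I interferon response genes that were called were higher with MCC950. Isg15 (chromosome 4, 156199424 to 156200818), which encodes a ubiquitin-like protein, stood at 7.91, 8.05 and 5.88 CPM with the antibody and at 13.4, 11.6 and 16.4 CPM with MCC950 (-0.92 ± 0.16, adjusted p = 6.49e-05). Untreated libraries had 10.8, 8.83 and 8.03 CPM. Ifi47, an interferon-inducible GTPase gene, stood at 205, 187 and 193 CPM against 226, 240 and 230 CPM (-0.25 ± 0.04). Bst2, the gene of the antiviral protein tetherin, differed by -0.48, Ifit3 by -0.42 and Ly6a by -0.27. Of 48 tested type I interferon genes, 8 were higher with MCC950 and none with the antibody, and 9 and 2 with the length and GC trend removed. The 16.7% called as counted lay near the 14.1% of all genes. The summed level of that list overlapped between the groups, with sums of 4933 to 4990 CPM in antibody libraries and of 4917 to 5097 CPM in MCC950 libraries. Ifit1 (-0.28) and Usp18 (-0.29) lost their calls on leaving out any 1 of 5 libraries, and the TPM fit called 1 of the list in each direction. Upper-quartile scaling gave 6 genes in each direction. Among 29 genes of the interferon gamma response and MHC class I, 8 were higher with MCC950 and 3 with the antibody. These calls were 37.9% of the list, beside 14.1% of all genes. With the trend removed, 5 and 2 were called. The class I heavy chain gene H2-K1 stood at 3962, 3844 and 3754 CPM against 4431, 4341 and 4430 CPM (-0.19 ± 0.02, adjusted p = 5.10e-08), and the peptide transporter gene Tap2 differed by -0.31. Iigp1, an interferon-inducible GTPase gene, went the other way, at 42.2, 36.8 and 44.6 CPM against 22.2, 29.4 and 30.1 CPM (0.60 ± 0.10, adjusted p = 6.42e-05).

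**Figure D4:**
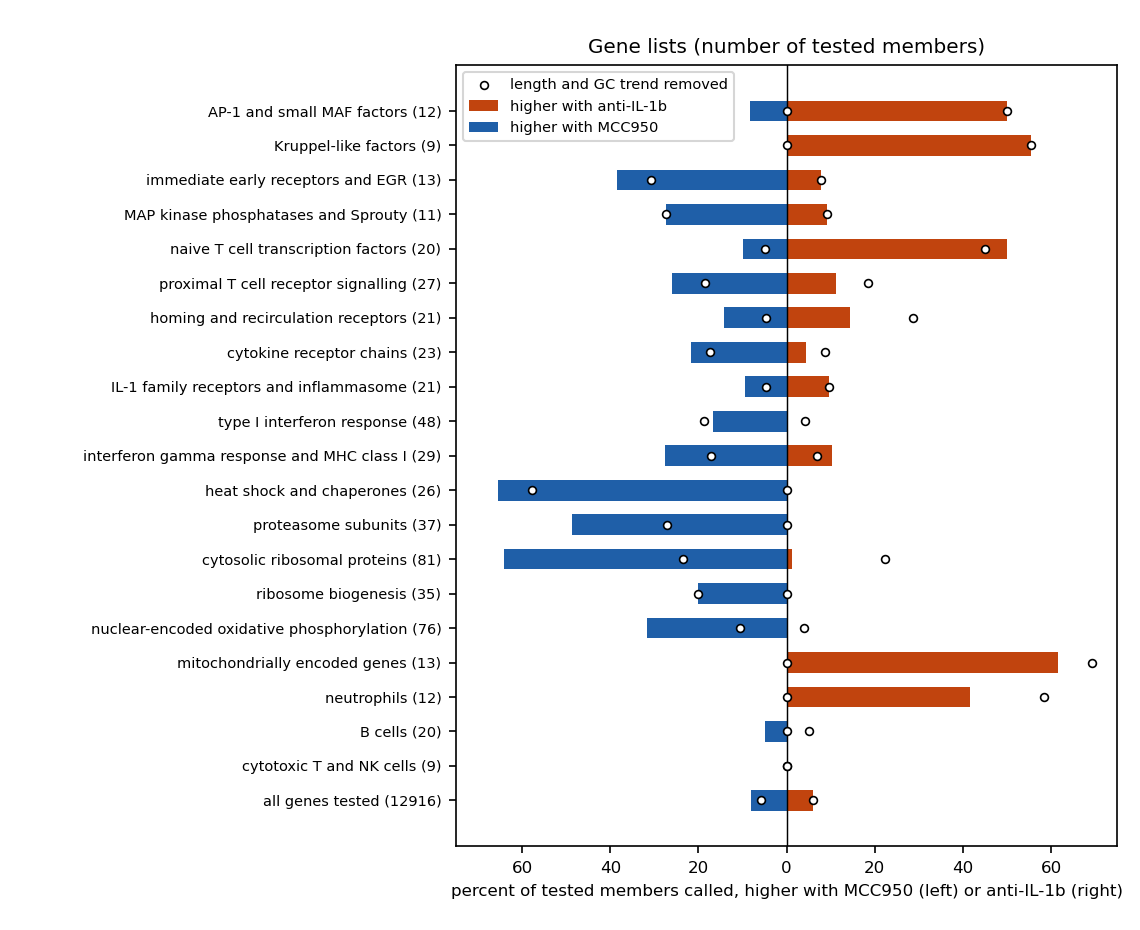
Percent of the tested members of each gene list that were called (x axis), to the right for higher with anti-IL-1b and to the left for higher with MCC950. Open circles give the same with the trend over length and GC content removed, and the bottom row gives all 12916 genes. Heat shock, AP-1, Kruppel-like factor and mitochondrially encoded genes changed little between bars and circles, and cytosolic ribosomal protein genes changed most.

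The targets of the agents were scarce in these libraries. Il1b (chromosome 2, 129364570 to 129371139) had 298 counts over the antibody libraries and 130 over the MCC950 libraries, at 7.21, 4.51 and 6.79 CPM against 2.22, 3.02 and 1.93 CPM, and 0 counts in untreated libraries. The antibody libraries were all above the MCC950 libraries, a log2 difference of 1.37 ± 0.25 (adjusted p = 1.47e-04). An antisense gene, Il1bos, overlaps Il1b, and the sources used here do not say whether reads were counted by strand. Nlrp3, the target of MCC950, had 42 and 18 counts and was too low to test, and antibody replicate 2 stood highest at 1.995 CPM, beside 0.291 and 0.392 CPM in the other antibody libraries. Il1r1, the signalling receptor gene of IL-1, had 4 and 7 counts. Casp1 stood at 3.90, 2.96 and 2.74 CPM against 1.87, 1.54 and 1.87 CPM, which did not overlap but was not called (0.87 ± 0.32, adjusted p = 0.0664). Aim2, the DNA sensor gene of another inflammasome, stood at 31.9, 34.8 and 34.1 CPM against 23.3, 25.4 and 24.8 CPM (0.45 ± 0.09, adjusted p = 3.73e-04). P2rx7, an ATP-gated channel gene upstream of NLRP3, was higher with MCC950 at 17.3, 20.5 and 22.8 against 27.6, 27.6 and 25.5 CPM (-0.42 ± 0.11, adjusted p = 0.00540), a call lost without antibody replicate 1. Myd88, the adaptor gene of IL-1 and Toll-like receptors, was higher with MCC950 by -0.20, a call lost without any 1 of 3 libraries and with the length and GC trend removed. These were the 2 and 2 calls among 21 tested genes of 29 listed (19% beside 14.1% of all genes), and 2 and 1 were called with the trend removed. The calls of Aim2, P2rx7 and Myd88 were lost on TPM and with an effective length offset.

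Neutrophil transcripts moved with Il1b, which is itself on that marker list. Cxcr2, a chemokine receptor gene of neutrophils, stood at 6.05, 4.70 and 3.72 CPM with the antibody and at 0.70, 0.795 and 0.716 CPM with MCC950 (2.70 ± 0.34, adjusted p = 2.40e-07), beside 1.09, 0.938 and 1.09 CPM in untreated libraries. Mmp9, a granule protease gene, stood at 3.52 ± 0.344 CPM against 1.46 ± 0.117 CPM (1.27 ± 0.32, adjusted p = 0.00541). S100a9, which encodes a calprotectin subunit, differed by 0.87 and Ngp, a granule protein gene, by 0.99. Those 5 genes with Il1b were the calls among 12 tested markers of 19 listed (41.7%, beside 14.1% of all genes), and none was higher with MCC950. With the length and GC trend removed, 7 and 0 were called. The other tested markers included Csf3r (0.63, adjusted p = 0.0545), S100a8 at 3.02 ± 1.08 against 2.15 ± 0.318 CPM, and Retnlg at 0.471 ± 0.20 against 0.777 ± 0.552 CPM. Elane, a gene of immature neutrophils, was at 0 counts in all libraries. The Ngp call was lost without any 1 of antibody replicates 2 and 3 and MCC950 replicates 1 and 3, in the fit of all 9 libraries, on TPM, with an effective length offset and on thinned counts. The Mmp9 call was lost on TPM and with the offset, and the S100a9 call with the offset and in the fit of all 9 libraries. DESeq2 called 2 of the list. Of 11 tested markers of monocytes, macrophages and dendritic cells, none was higher with the antibody and 2 were higher with MCC950. These were 18.2% of the list, beside 14.1% of all genes, namely Bst2 (-0.48) and the protease gene Ctss (-0.15). The Ctss call was lost without any 1 of 4 libraries and with the trend removed.

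Some single genes differed far more than any list. Eps8l1 (chromosome 7, 4460674 to 4480487), which encodes an EPS8-like actin regulator, stood at 1.69, 2.25 and 2.68 CPM with the antibody and at 76.5, 72.9 and 75.3 CPM with MCC950, 34.1-fold apart (-5.09 ± 0.11, adjusted p = 7.11e-29). Untreated libraries lay between, at 16.73, 15.84 and 12.99 CPM. Slc15a2 (chromosome 16, 36750177 to 36784962), a peptide transporter gene, stood at 2.35 to 2.85 CPM against 39.4 to 41.6 CPM, 15.6-fold apart (-3.96 ± 0.13, adjusted p = 2.83e-23), with untreated libraries again between at 18.4, 14.2 and 18.8 CPM. Acvrl1 (chromosome 15, 101128522 to 101145336), the gene of the TGF-beta family receptor ALK1, went the other way, at 25.1, 23.6 and 16.3 CPM against 1.17, 0.742 and 1.98 CPM, 16.7-fold apart (4.06 ± 0.25, adjusted p = 1.37e-09). Its untreated libraries, at 16.7, 20.2 and 19.0 CPM, lay within the range of the antibody libraries. Each of these 3 genes was called under every alternative that was run. Predicted genes overlap Eps8l1 and Acvrl1 on the opposite strand, Gm15494 and Gm16031, each with 0 counts in the treated libraries.

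**Figure D5:**
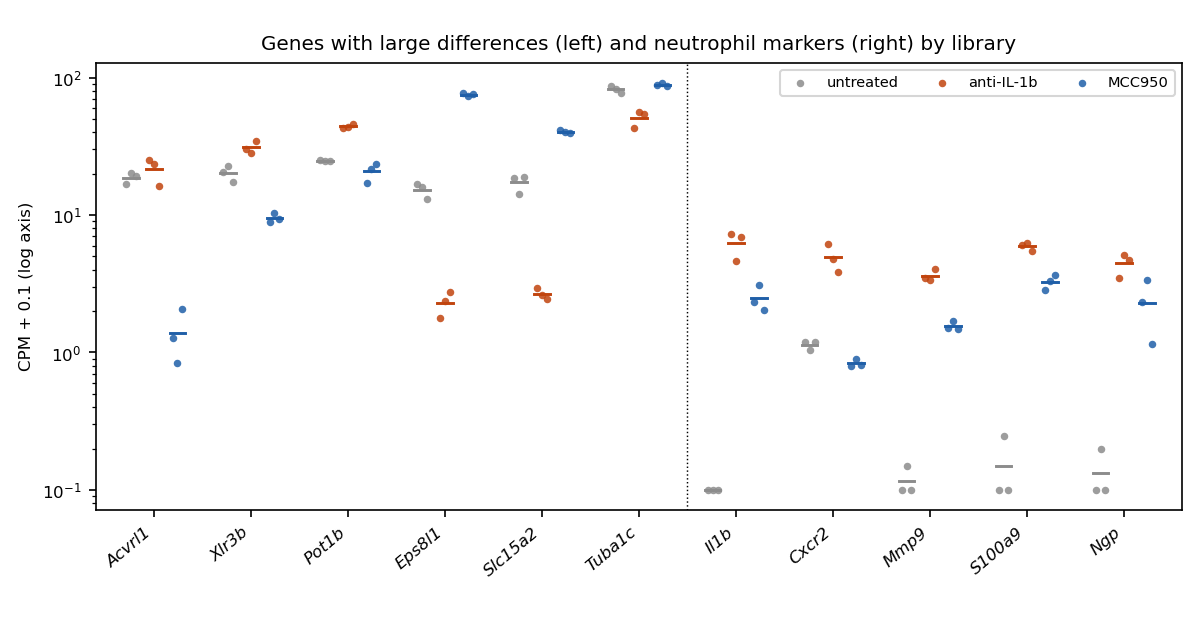
CPM plus 0.1 on a log axis of genes with large differences (left of the dotted line) and neutrophil markers (right) in each library, with untreated cells in grey, anti-IL-1b in orange and MCC950 in blue. Points are libraries and bars are means of 3. Acvrl1 lay at 0.742 to 1.98 CPM with MCC950 and Eps8l1 at 1.69 to 2.68 CPM with anti-IL-1b, away from the other groups, while the neutrophil markers Il1b, Mmp9, S100a9 and Ngp lay near 0 in untreated libraries.

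Among the other genes with the largest differences, Xlr3b, a lymphocyte-regulated gene with near-identical copies on chromosome X, stood at 30.1, 28.4 and 34.7 CPM with the antibody and at 8.87, 10.3 and 9.25 CPM with MCC950 (1.71 ± 0.12, adjusted p = 1.01e-13). Reads of its copies cannot be separated with certainty. Pot1b, a telomere protection gene, stood at 42.8, 43.7 and 45.7 CPM against 17.1, 21.5 and 23.4 CPM (1.09 ± 0.09, adjusted p = 5.46e-11), and untreated libraries, at 24.9, 24.6 and 24.5 CPM, lay near the MCC950 libraries. Marveld2 and Ntng2 each differed by 0.90, Ptp4a1 by 0.85, Unc5cl by 0.78, Ptprf by 0.77, Tanc2 by 0.75, Nav2 by 0.72 and Casc4 by 0.71. Of these, Ptprf lost its call without MCC950 replicate 1 or 2. Tanc2 lost it without antibody replicate 2 or MCC950 replicate 1 or 3 and with the length and GC trend removed, and its direction turned with an effective length offset (-0.07). Ptp4a1, Ntng2 and Nav2 share exons on the same strand with another annotated gene, so their counts are uncertain. Of 2 gene entries named Ptp4a1 at that place, the one that differed by 0.85 had 7.31 and 4.05 CPM, and the more abundant one, at 58.0 and 52.7 CPM, differed by 0.14 and was not called (adjusted p = 0.1897).

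Higher with MCC950 was Tuba1c, an alpha tubulin gene, at 42.7, 55.7 and 54.5 CPM with the antibody and 88.6, 90.7 and 87.4 CPM with MCC950 (-0.81 ± 0.07, adjusted p = 3.11e-09), beside 87.4, 82.0 and 77.8 CPM in untreated libraries. Lypd6b stood at 14.9, 16.4 and 18.9 CPM against 30.4, 29.2 and 30.1 CPM (-0.84 ± 0.10), and its untreated libraries were lower still, at 9.55, 6.96 and 7.93 CPM. Tbcc, a tubulin folding cofactor gene, differed by -0.81 and Ptgir, the prostacyclin receptor gene, by -0.79. Snx9, Fam221b, Fam129c, Lysmd2, Ndufaf8, Unc5a and Dnaaf2 differed by between -0.77 and -0.69. Each of these 7 other than Ndufaf8 lost its call without at least 1 single library: Snx9 without MCC950 replicate 2 or 3, Fam221b without antibody replicate 2 or MCC950 replicate 3, Fam129c without antibody replicate 3 or MCC950 replicate 1, Lysmd2 without MCC950 replicate 3, Unc5a without MCC950 replicate 1, and Dnaaf2 without any 1 MCC950 library. Fam129c and Dnaaf2 also share exons on the same strand with other annotated genes, so their counts are uncertain. Exosc6, at 33 against 476 counts (-3.68 ± 0.29), lies in exons of Aars on the same strand, so its counts are uncertain. Aars itself stood at 87.5 ± 4.31 and 96.7 ± 3.82 CPM and was not called.

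Metabolic, glucocorticoid response and survival lists gave calls in both directions. Pdk1, which encodes an inhibitory kinase of pyruvate dehydrogenase, was higher with the antibody at 488, 471 and 487 against 342, 355 and 338 CPM (0.48 ± 0.03, adjusted p = 9.50e-14), while Ldha, the gene of a lactate dehydrogenase subunit, was higher with MCC950 at 310, 310 and 292 against 370, 368 and 370 CPM (-0.28 ± 0.03). Of 31 tested genes of glycolysis and hypoxia, 1 was higher with the antibody and 6 with MCC950 (22.6%, beside 14.1% of all genes). With the length and GC trend removed, 2 and 2 were called. Ddit4, a glucocorticoid and stress-induced inhibitor gene of mTORC1, stood at 90.4, 98.8 and 88.1 CPM with the antibody and at 129, 129 and 130 CPM with MCC950 (-0.49 ± 0.05, adjusted p = 2.39e-09). Sgk1, another glucocorticoid target, differed by -0.39, whereas Fkbp5, at 54.6 ± 2.47 and 57.2 ± 1.42 CPM, was not called. In the glucocorticoid list, 4 of 16 genes were higher with the antibody and 2 with MCC950 (37.5% called, beside 14.1% of all genes). With the trend removed, 6 and 2 were called. The 4 became 2 without MCC950 replicate 1 and 8 with upper-quartile scaling. Mcl1 and Bax, survival and death genes of the BCL2 family, were both higher with MCC950, by -0.22 and -0.34, and Bcl2, another survival gene, was higher with the antibody by 0.16, a call lost with the trend removed. These were the 3 calls among 15 tested genes (20%, beside 14.1% of all genes). GIMAP genes, which encode GTPases of lymphocyte survival, were higher with MCC950 in 5 of 8 cases, led by Gimap1 (-0.32) and Gimap7 (-0.32), and Gimap6 was higher with the antibody (0.13). The GIMAP calls were 75% of the list, beside 14.1% of all genes. With the trend removed 4 and 1 were called, and without 1 library 3 to 4 were higher with MCC950. Malat1, an abundant long noncoding RNA, was higher with the antibody by 0.18 as counted and by 0.05 with the trend removed. Of 33 tested genes of DNA replication and mitosis, 1 (3.03%), Pcna, was called (-0.20). Lists of the circadian clock (18 tested) and of cell cycle inhibitors (8 tested) gave 1 call each, Csnk1d (-0.14) and Btg2 (-0.16). Those calls were 5.56% and 12.5% of the lists, beside 14.1% of all genes. Both were lost without at least 1 single library (Btg2 without MCC950 replicate 1).

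Splicing and stress lists gave calls in both directions. Of 24 tested genes of SR proteins and CLK kinases, 5 were higher with the antibody and 5 with MCC950. These calls were 41.7% of the list, beside 14.1% of all genes. With the length and GC trend removed, 5 and 4 were called. Without 1 library 4 to 5 were higher with the antibody and 2 to 4 with MCC950, the latter being 2 without MCC950 replicate 2 or 3, and upper-quartile scaling gave 6 and 2. Srrm1, a splicing coactivator gene, stood at 224, 226 and 223 CPM with the antibody and at 188, 180 and 189 CPM with MCC950 (0.28 ± 0.04, adjusted p = 1.22e-06), and Srrm2 and Luc7l2 differed by 0.20 and 0.24. Srsf9, an SR protein gene, was higher with MCC950 at 30.0 ± 1.61 against 39.8 ± 2.36 CPM (-0.41 ± 0.08). Among 25 tested genes of ATF4 and amino acid stress, 6 were higher with MCC950 and 1 with the antibody. These calls were 28% of the list, beside 14.1% of all genes. With the trend removed, 4 and 1 were called. The 6 became 3 to 5 without 1 library, 3 with DESeq2 and 2 with upper-quartile scaling, and were 3 without antibody replicate 1, antibody replicate 3 or MCC950 replicate 3. The serine synthesis gene Phgdh stood at 73.7, 73.7 and 68.0 against 93.9, 86.9 and 85.1 CPM (-0.30 ± 0.06), and Ppp1r15a, which encodes the GADD34 subunit that ends the stress response, was the gene higher with the antibody, at 134, 132 and 126 against 102, 106 and 98.9 CPM (0.35 ± 0.05, adjusted p = 6.86e-07). Cholesterol synthesis genes were higher with MCC950 in 6 of 34 cases and with the antibody in 1, the efflux transporter gene Abcg1 (0.18). These calls made up 20.6% of the list, beside 14.1% of all genes. With the trend removed, 4 and 1 were called. Idi1, an isomerase gene of that pathway, stood at 30.1, 31.9 and 35.1 against 40.5, 42.2 and 46.5 CPM (-0.41 ± 0.08), and without 1 library between 1 and 6 genes of the list were called higher with MCC950, the lowest number without antibody replicate 3 or MCC950 replicate 1.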

How the data were processed

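Poly(A) RNA of splenic naive CD4+ T cells was measured in 9 libraries, 3 per group, of which the 6 treated libraries were compared. Per the submitters' processing notes, STAR, RSEM and the mouse build mm10 were used, with versions and annotation not given in the sources used here. The deposited files hold, per the file headers, the authors' estimated counts (expected counts) from RSEM for each gene ID, not normalized across libraries. They also hold the authors' TPM values, which are relative to each library's own total, and the authors' lengths and effective lengths in bases. Of 55487 gene IDs, 55227 matched a GENCODE M21 symbol, and coordinates are mm10. The libraries were made with a strand-marking kit per the labels' protocols, but the sources do not say whether the counting was strand-specific. Genes with overlapping exons or near-identical copies are therefore uncertain.

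Expected counts were rounded, scaled by TMM factors over all 9 libraries (0.947 to 1.036) and filtered with filterByExpr on the 6 treated libraries, which left 12916 genes. Differences are anti-IL-1b over MCC950, tested two-sided with edgeR 4.0.16 in R 4.3.3 (quasi-likelihood, robust) with Benjamini-Hochberg adjustment over all genes tested and a threshold of 0.05. A gene was called where its adjusted p was at most that threshold. The common biological coefficient of variation was 0.0666. The chi-square per degree of freedom between libraries of a group, 3.754 to 5.267, exceeded sampling noise, so no pair was taken to be 1 library deposited repeatedly, which does not show that they come from different mice. The same fit was also run on simulated counts with known changes, and its outcome is not given here.

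Single genes named are the 15 largest differences in each direction among called genes whose groups did not overlap, averaging a log2 CPM of 2 or more, without predicted, receptor segment and pseudogene entries (8 and 9 passed over), members of the gene lists by smallest p, uncalled members by level, and a few fixed checks. Further list members and the genes under other observations were named after their values were seen, and a few genes are not reported here. The comparison, its gene lists and the naming rule were chosen with earlier results of these data known. Alternatives were DESeq2 1.42.0, limma 3.58.1 (voom, and trend on log2(TPM + 1)), other scalings and filters, a replicate block, an effective length offset, thinning to 14775382 counts, omission of each library, and removal of a length and GC trend, the last chosen after seeing the data. Promoter windows come from RefSeq on GRCm38.p6.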

Additional observations from a re-analysis of the deposited data

How the results depend on the processing

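Against 1821 called genes, 773 higher with the antibody and 1048 with MCC950, the fit on log2(TPM + 1) called 367 (226 and 141) and the effective length offset 557 (214 and 343). Upper-quartile scaling gave 1277 and 612, RLE scaling 912 and 929, library totals 977 and 857, and removal of the length and GC trend 771 and 743. The cause was not tested. The 84 genes with at least 2-fold differences became 17 with DESeq2, 30 with TPM and 40 with the effective length offset. Leaving out 1 library gave between 1266 and 1690 calls, of which 538 to 718 were higher with the antibody and 714 to 972 with MCC950, and between 67 and 88 genes with at least 2-fold differences. The lowest total came without MCC950 replicate 1. Other scalings moved the median of all genes by at most 0.05, with the upper quartile, and the fit on log2(TPM + 1) moved it by 0.06.

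Among named genes, direction turned in these cases. On log2(TPM + 1), Hsp90aa1 stood at 0.02, Itgb7 at 0.11 and Slamf6, higher with the antibody by 0.13 in the test as reported, at -0.01. With the effective length offset, Itgb7 stood at 0.04, Tanc2 at -0.07 and Slamf6 at -0.09. Nlrp3 and Il1r1 did not pass the count filter of the test as reported.

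With a replicate block 2074 genes were called, 903 higher with the antibody and 1171 with MCC950, including 1814 of the 1821. Same-numbered libraries had correlations of their deviations from the group means of 0.0451, 0.102 and 0.152 over 9856 genes. Each antibody library correlated best with the MCC950 library of its own number, but MCC950 replicate 1 correlated best with antibody replicate 2 (0.062), and the numbers were not taken to pair the libraries.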

Other observations

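Several scarce transcripts were higher with the antibody. The genes named here were chosen after their values were seen, among 60 at least 2-fold higher with the antibody and 24 with MCC950, or below 2-fold. Of the 11 tested markers of monocytes, macrophages and dendritic cells, none was higher with the antibody and 2 were higher with MCC950. Lilrb4a (168 against 70 counts), Lilr4b (113 against 50) and Hcar2 (64 against 18), not on that list, were called higher with the antibody. Lilrb4a and Lilr4b share exons with Gm49339 on the same strand, so their counts are uncertain. Cxcl2, a chemokine gene that attracts neutrophils, had 48 counts over the antibody libraries and 0 over the MCC950 and untreated libraries, at least 17.9-fold higher against a floor of 3 counts over the MCC950 group. Ptgs2, the gene of cyclooxygenase-2, stood at 1.63, 2.96 and 2.15 CPM against 0.525, 0.159 and 0.661 CPM (2.31 ± 0.51, adjusted p = 0.00145 by edgeR) and had 0 counts in untreated libraries. Hp, the haptoglobin gene, had 114 and 37 counts, a call lost without antibody replicate 1 or MCC950 replicate 1. Trib1 and Rhob differed by 1.30 and 0.69, with untreated libraries above both agents, at 27.0 to 31.3 CPM and 108 to 111 CPM.

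Immunoglobulin constant genes with at least 2-fold differences went in both directions. Ighg2c had 120 counts over the antibody libraries, 0 over the MCC950 libraries and 3 over the untreated libraries, at least 45-fold higher with the antibody against that floor. Ighg1 had 4 counts over the antibody libraries, 95 over the MCC950 libraries and 7 over the untreated libraries (-4.30 ± 0.75). Iglc2, higher with the antibody, had 106, 47 and 11 counts in the same order (1.35 ± 0.44), and it shares exons with Iglj2 on the same strand. Rag2, a recombinase gene of immature lymphocytes, had 6, 82 and 47 counts, and its partner Rag1 had 5, 2 and 12.

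G530011O06Rik, on chromosome X, stood at 144, 136 and 161 CPM with the antibody, at 76.3, 72.8 and 78.0 CPM with MCC950 and at 0.669, 0.641 and 0.574 CPM in untreated libraries (0.96 ± 0.05, adjusted p = 1.31e-15 by edgeR). Gm47283, on chromosome Y, stood at 220, 214 and 204 CPM, at 120, 84.0 and 104 CPM and at 52.6, 69.6 and 56.1 CPM (1.05 ± 0.15, adjusted p = 0.0165), a call lost on leaving out any 1 of 4 libraries. Of 8 tested genes on chromosome Y, 2 were called, the other being Gm21860. Gm47283 and Gm21860 start at 90784738 and 90754513, far from Ddx3y, Eif2s3y and Kdm5d, which start at 1260771, 1010543 and 897788. Whether G530011O06Rik, Gm47283 and Gm21860 share reads with copies on the other sex chromosome was not tested, so their counts are uncertain. Ddx3y, at 184 and 177 CPM, Eif2s3y, at 97.7 and 91.2 CPM, Kdm5d and Uty were not called.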
